A study of Mus musculus with 37 samples.

Results

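Genes of lipid uptake and adipogenesis were followed across mouse embryonic fibroblasts reprogrammed with a pool of factors. The 8 genes, of 27999 measured, were chosen by name: Lpl, Cd36, Fabp3, Fabp4, Fabp5, Plin2, Pparg and Cebpa. Every count table held all 8. They were compared between cells with and without a transcript of Mesp1, Foxn4, Gata6, Myod1, Isl1 or Meis1, each a transcription factor of the pool.

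The study infected fibroblasts of ICR mouse embryos with retroviral vectors that carried 48 factors, of which 43 had a row of counts, and profiled single cells 7 days later by Drop-seq, which captures cells and barcoded beads together in droplets. All 37 libraries are labelled as technical replicates of 1 biological replicate, every cell received the same pool, and the samples used here form 1 group with no untreated cells. A cell with a factor is therefore a cell with at least 1 count of it. Its comparison cells came from the same library, had no count of that factor and could hold any other factor, and endogenous and vector transcripts of a factor could not be told apart. All p-values measure only the spread between libraries of 1 culture.

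Lipoprotein lipase, encoded by Lpl, hydrolyses triglycerides of circulating lipoproteins into fatty acids that cells take up. Cd36 is a membrane receptor for long-chain fatty acids, the Fabp proteins carry fatty acids through the cytosol, and Plin2 coats lipid droplets. Pparg and Cebpa are the transcription factors that drive fat cell formation. They act on each other's genes and on Fabp4, and embryonic fibroblasts can become fat cells when both are induced.

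In GENCODE M21 (mouse genome GRCm38), Lpl lies at chr8:68880491-68907448, Cd36 at chr5:17781690-17888801 and Plin2 at chr4:86648386-86670060, each without an overlapping gene. Fabp4 (chr3:10204088-10208576) and Fabp5 (chr3:10012548-10016607) lie on the same chromosome and do not overlap any other gene. Pparg (chr6:115360951-115490399) and Cebpa (chr7:35119293-35121928) each overlap an antisense gene. Fabp3 (chr4:130308595-130315463) overlaps Zcchc17 and Gm10570 on the opposite strand, and its pseudogene Fabp3-ps1 also has a row. No source used here states whether counting used strand or how reads with several matches were treated, so counts of Pparg, Cebpa and Fabp3 are uncertain to that extent.

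RefSeq promoter windows (GRCm38.p6) were matched for 5 of the 8 genes: Pparg, Cebpa, Fabp3, Cd36 and Plin2. Lpl, Fabp4 and Fabp5 were not matched. In the 250 bases before each start, 7 motifs were searched on both strands, and the windows below hold matches that bear on genes described further on. The C/EBP motif TTGCNNAA had 2 matches before the most downstream of the 3 Pparg starts and was found in 9.56% of 32851 promoters. The E-box CAGCTG had 1 match before the Plin2 start and was found in 13.0% of promoters. Capitals mark the match, and each window reads 5′ to 3′ on the strand of the gene.
Pparg, chr6:115421821-115421888, plus strand: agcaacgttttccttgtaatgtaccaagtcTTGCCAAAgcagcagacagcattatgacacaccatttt
Pparg, chr6:115422020-115422065, plus strand: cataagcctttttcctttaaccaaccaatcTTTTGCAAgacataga
Plin2, chr4:86670060-86670105, minus strand: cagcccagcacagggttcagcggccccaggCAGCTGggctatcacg
These matches describe the letters of the windows only. The E-box CAGGTG, present in 17.2% of promoters, had 1 match before another Pparg start. No window of the 5 genes held GATAAG (6.55% of promoters), TGACAG (15.9%), the SREBP motif TCACNCCAC (1.05%) or the PPAR direct repeat (0.033%).

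After barcodes shared between libraries were resolved, 8565 cells in 36 libraries held 119803382 counts, with a median of 8553 counts and 3568 genes per cell. Library totals ranged from 637680 to 7921171 counts. Technical replicates 4 and 6 shared 59 barcodes and were joined as 1 library, and no other pair shared more than 4. The library names form 3 series, JD, PZ47-PZ48 and PZ58, with 15, 15 and 6 libraries. In 10 libraries Rps27a, a ribosomal protein gene, had at least 728 CPM (a gene's counts scaled to a common total over all genes), and in the other 26 at most 15.6, so these 2 read classes were also analysed apart. The high class consisted of all 6 PZ58 libraries and 4 JD libraries. Results in PZ58 alone and in the high class alone are therefore not separate checks. Fibroblast markers summed to 13228 CPM over all cells, with none of the 12 markers at 0. At least 3 markers of macrophages, endothelium, skeletal muscle, mesothelium or glia, called other types in the following, were found in 1147 cells.

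The 8 genes fell into a widely detected group and a rare one. Fabp5 was detected in 55.0% of cells, Plin2 in 52.8%, Lpl in 45.9% and Fabp3 in 34.9%. Fabp4 was detected in 16.8% of cells, Cebpa in 6.97%, Pparg in 4.07% and Cd36 in 1.49%. Detection followed depth: cells with Lpl had a median total of 10982 counts and cells without it 7150. Comparisons were therefore made between cells matched on total counts within a library.

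Across the 36 libraries Lpl ranged from 137 to 252 CPM, with a median of 188. Plin2 ranged from 80.7 to 163 (median 120.0) and Fabp5 from 78.8 to 223 (median 133). Fabp3 ranged from 28.6 to 138 (median 56.9) and Fabp4 from 14.2 to 113 (median 36.1). Lpl was thus steadier between libraries than Fabp3 or Fabp4, relative to its own level. Cebpa ranged from 2.28 to 10.3 CPM, Pparg from 0.997 to 10.2 and Cd36 from 0 to 15.6. A few cells held much of the Cd36 and Pparg transcripts: 10 cells carried 47.8% of all Cd36 counts and 22.6% of all Pparg counts. The top 10 cells carried 12.2% of Fabp4 counts, 6.25% of Cebpa counts and 6.72% of Lpl counts.

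The read classes differed for some members, described here without a test. Fabp5 averaged 113 ± 26.0 CPM (SD, n = 10) in the high class and 147 ± 26.5 (SD, n = 26) in the low class. Fabp3 averaged 46.9 ± 15.6 and 69.0 ± 20.3, and Plin2 104 ± 18.3 and 122 ± 20.4. Lpl averaged 195 ± 31.3 in the high class and 192 ± 32.3 in the low class. The ranges of the classes overlapped for all 4 genes.

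Lpl was higher in cells with 5 of the 6 factors. The increase was 3.02-fold in Mesp1 cells, 2.31-fold in Foxn4 cells, 1.96-fold in Myod1 cells, 1.81-fold in Gata6 cells and 1.40-fold in Meis1 cells. In Isl1 cells Lpl was lower by estimate but did not pass the test. Across all genes tested, 8.64% were called in the Mesp1 comparison, 7.09% for Foxn4, 5.66% for Gata6, 14.3% for Myod1, 0.293% for Isl1 and 2.3% for Meis1, where called means an adjusted p under 0.05 in edgeR's quasi-likelihood test. Of the 8 lipid genes, 2 were called for Mesp1, 1 each for Foxn4, Gata6 and Meis1, 5 for Myod1 and 0 for Isl1. The 6 comparisons share many of their comparison cells and their values are not independent. Cells with a factor were shared as well: 1004 cells held both Gata6 and Meis1. The members' median log2 fold change was -0.22 for Mesp1, 0.0074 for Foxn4, 0.023 for Gata6, -0.15 for Myod1, -0.40 for Isl1 and -0.059 for Meis1. The median of all genes lay between -0.017 (Myod1) and 0.020 (Foxn4).

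**Figure D1:**
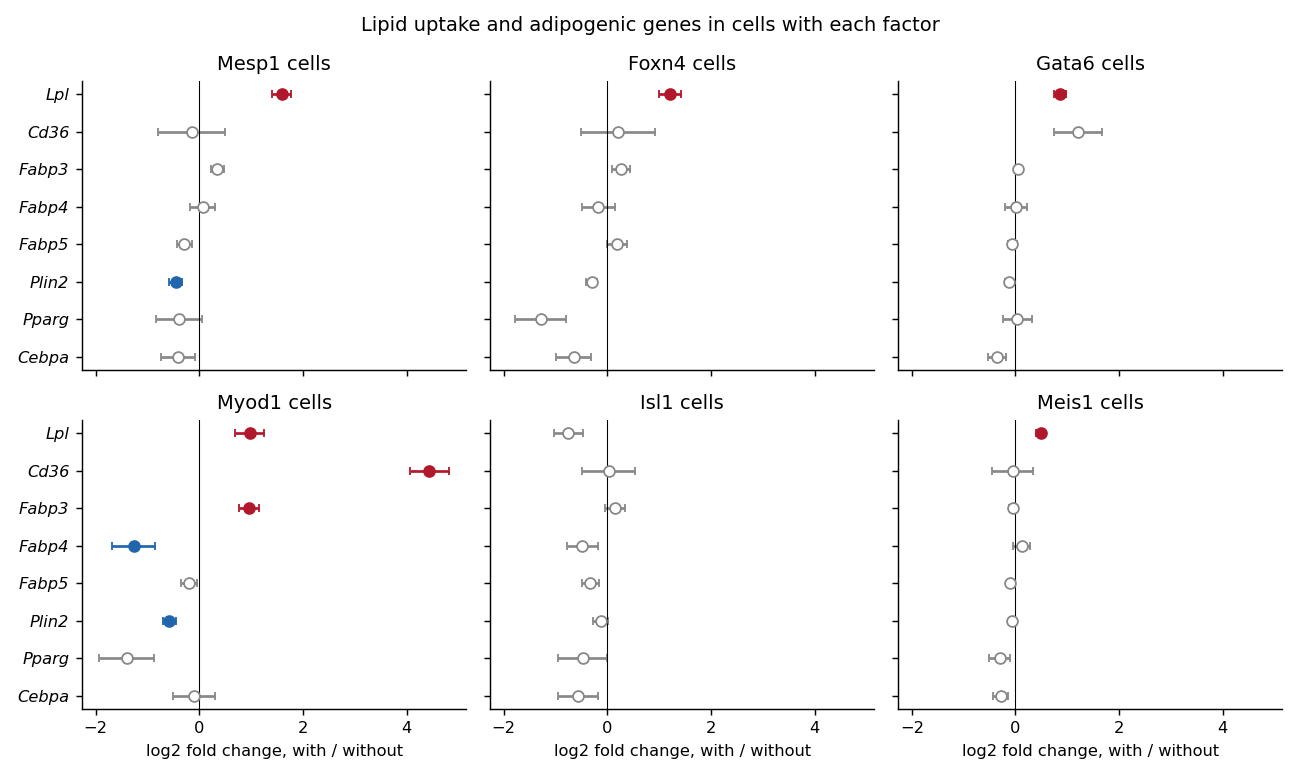
Log2 fold change of each lipid gene in cells with a factor against matched cells without it, 1 panel per factor, with points as edgeR estimates and bars as standard errors. Filled points have an adjusted p under 0.05 (red higher, blue lower): Lpl is filled in 5 panels, Cd36, Fabp3, Fabp4 and Plin2 are filled for Myod1, and Plin2 is also filled for Mesp1.

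In Mesp1 cells, Lpl ranged from 112 to 1026 CPM over 36 libraries, with a median of 424. In the matched cells without Mesp1 it ranged from 22.1 to 483, with a median of 124. The ranges overlapped, but Lpl was higher with Mesp1 in 34 of 36 libraries. The log2 fold change was 1.59 (SE 0.18, adjusted p = 1.14e-08 by edgeR). Lpl was detected in 76.4% of the 495 Mesp1 cells and in 52.5% of the 495 matched cells, so more cells had the transcript. In the 129 cells that held Mesp1 and none of the other 5 factors, Lpl stood at 370 CPM, against 123 in the 3723 cells with none of the 6. Within these sets the median totals were 7924 and 6597 counts. In Mesp1 cells 2 of 15 skeletal muscle markers and 3 of 10 tested cardiomyocyte markers were higher, where 8.64% of all genes were called. Without cells with at least 3 markers of the other types the log2 fold change of Lpl was 1.87 (SE 0.21, adjusted p = 1.96e-09). In the PZ58 libraries alone it was 1.39 (SE 0.30, adjusted p = 0.11).

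In Foxn4 cells, Lpl ranged from 52.0 to 1090 CPM over 35 libraries (median 386) and in the matched cells from 21.5 to 551 (median 138). It was higher in 31 of 35 libraries and lower in 4, with a log2 fold change of 1.21 (SE 0.21, adjusted p = 4.61e-05 by edgeR). Detection was 71.5% against 50.8%. Foxn4 cells often held other factors: 251 also held Meis1, 174 Gata6 and 91 Mesp1. Without cells that held another of the 6 factors, the log2 fold change was 1.82 (SE 0.36, adjusted p = 0.000535), over 63 pairs in 14 libraries. Over all 92 cells with Foxn4 and none of the other 5 factors, before matching, Lpl stood at 174 CPM against 123 in cells with none of the 6. Without cells with at least 3 markers of another cell type it was 0.78 (SE 0.22, adjusted p = 0.0173). In the 10 libraries of the high read class alone the estimate was 0.46 (SE 0.37, adjusted p = 0.888), and in the 6 PZ58 libraries it was 0.46 (SE 0.41, adjusted p = 0.941). Of the 12 cardiomyocyte markers 2 were higher in Foxn4 cells, and 6 of 12 fibroblast markers were lower, where 7.09% of all genes were called. Their part in the Lpl result was not tested.

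In Gata6 cells, Lpl ranged from 134 to 646 CPM (median 244) and in the matched cells from 62.2 to 349 (median 142). Of 36 libraries, 31 had more Lpl with Gata6, and the log2 fold change was 0.86 (SE 0.11, adjusted p = 5.63e-07 by edgeR). Mesothelial markers moved with Gata6: all 10 were higher in Gata6 cells, their sum ranged from 74.9 to 608 CPM with Gata6 and from 20.3 to 342 without, and none was at 0. Lpl was also higher in cells with at least 3 mesothelial markers, at 309.9 CPM, than in cells with fewer than 3 markers of each other type, at 171.3. This was not particular to mesothelial markers: Lpl stood at 260 with macrophage, 250 with muscle, 229 with glial and 170 with endothelial markers. Without all cells that had at least 3 markers of another type, the Gata6 log2 fold change of Lpl was 0.87 (SE 0.13, adjusted p = 1.33e-05). The call was lost in the PZ58 libraries (0.67, adjusted p = 0.491) and in the high read class (0.69, adjusted p = 0.129).

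In Myod1 cells, Lpl ranged from 38.4 to 1495 CPM over 34 libraries (median 303), and in the matched cells from 0 to 1655 (median 149). The groups overlapped over nearly their whole range. Lpl was higher in 22 of 34 libraries and lower in 12, with a log2 fold change of 0.97 (SE 0.28, adjusted p = 0.0103 by edgeR). With at least 2 counts of Myod1 required, the estimate was 0.56 (SE 0.34, adjusted p = 0.31), and without cells with markers of other types it was 1.76 (SE 0.28, adjusted p = 3.98e-05). The call was also lost in the PZ47-PZ48 libraries (0.66, adjusted p = 0.413), the PZ58 libraries (0.85, adjusted p = 0.801) and the high read class (0.88, adjusted p = 0.476).

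In Meis1 cells, Lpl ranged from 122 to 483 CPM (median 214) and in the matched cells from 83.7 to 331 (median 155). Lpl rose in 27 of 36 libraries, and the log2 fold change was 0.48 (SE 0.095, adjusted p = 0.0014 by edgeR). Detection was 51.5% against 44.4%, with 2807 cells on each side. The call was lost in the JD libraries (0.40, adjusted p = 0.333), the PZ58 libraries (0.36, adjusted p = 0.856) and the high read class (0.33, adjusted p = 0.687).

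In Isl1 cells, Lpl ranged from 0 to 481 CPM over 36 libraries (median 116) and in the matched cells from 25.3 to 1646 (median 170.0). It was lower in 24 libraries and higher in 12, with a log2 fold change of -0.75 (SE 0.28, 95% interval -1.30 to -0.21, adjusted p = 0.325 by edgeR). None of the 8 genes was called by edgeR or by DESeq2, and 1, Lpl, had an unadjusted p under 0.05. Without the deepest 5% of cells in each library Lpl was called lower, with a log2 fold change of -0.96 (SE 0.23, adjusted p = 0.0226).

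**Figure D2:**
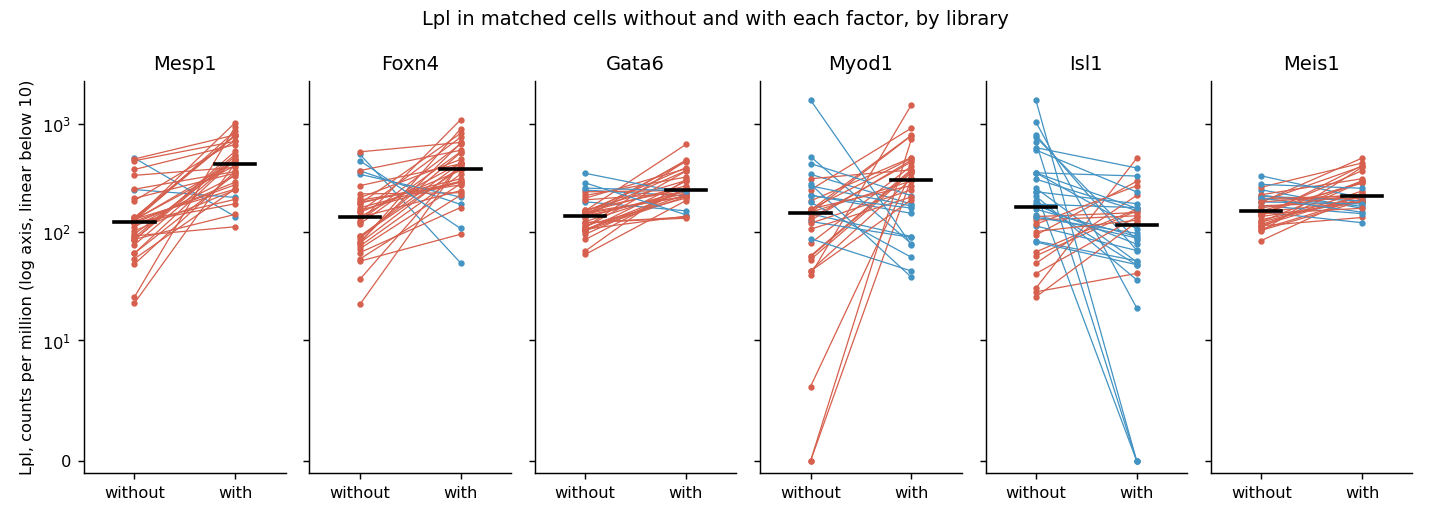
Lpl in CPM (log axis, linear below 10) in matched cells without and with each factor, 1 line per library, red where higher with the factor and blue where lower; black bars are medians over libraries. Nearly all lines rise for Mesp1 (34 of 36), whereas 12 of 36 rise for Isl1.

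Cells of different factors were also compared directly, with cells that held both factors left out. Lpl was higher in Mesp1 cells than in Foxn4 cells (log2 fold change 0.89, SE 0.26, adjusted p = 0.0496), Gata6 cells (1.14, SE 0.19, adjusted p = 5.37e-05), Isl1 cells (1.87, SE 0.31, adjusted p = 0.000178) and Meis1 cells (1.46, SE 0.23, adjusted p = 2.1e-05), all by edgeR. The background of called genes was 2.22% against Foxn4, 3.15% against Gata6, 0.825% against Isl1 and 2.04% against Meis1. The difference from Foxn4 cells did not pass with library totals in place of TMM scaling (adjusted p = 0.0582). Between Mesp1 and Myod1 cells the difference of Lpl was not called: the log2 fold change was 0.40 with a 95% interval from -0.11 to 0.91 (adjusted p = 0.508). Lpl in Gata6 cells against Myod1 cells gave -0.79 (95% interval -1.40 to -0.18, adjusted p = 0.108). The order of Lpl levels thus had Mesp1 cells above Foxn4, Gata6, Meis1 and Isl1 cells, with Myod1 cells not separated from Mesp1 or Gata6 cells.

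Lpl also went with the number of factors in a cell, described here without a test. It stood at 123 CPM in cells with 0 of the 6 factors, 161 in the 3141 cells with 1, 233 in the 1279 cells with 2 and 373 in the 422 cells with 3 or more. Median totals rose alongside, from 6597 to 22368 counts. Fabp4 did not follow this order, at 45.3, 41.8, 29.5 and 52.4 CPM.

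Of 18 genes with a row that act on or with LPL, 13 were tested in each of the 6 factor comparisons. Angptl4, a secreted inhibitor of lipoprotein lipase, rose in Mesp1 cells (log2 fold change 0.61, SE 0.15, adjusted p = 0.00586) and in Gata6 cells (0.29, SE 0.071, adjusted p = 0.00626), the only called gene of this list in either, where 8.64% and 5.66% of all genes were called. In Myod1 cells Lipg, the endothelial lipase, and Lrp1, an endocytic receptor, were among the genes of the list that fell, and they are named after their values were seen. None was called for Foxn4, Isl1 or Meis1. Gpihbp1, which anchors the lipase on capillary cells, had 0 counts in all cells.

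Myod1, the factor that directs cells to skeletal muscle, was the factor with the most lipid genes called. Cd36, Fabp3 and Lpl were higher in Myod1 cells, and Fabp4 and Plin2 were lower. Cd36 showed the largest change, with 186 counts in 344 Myod1 cells against 4 in 344 matched cells. All 15 skeletal muscle markers were higher in Myod1 cells too, and 48.5% of Myod1 cells had at least 3 of them, against 7.56% of the matched cells. The summed muscle markers ranged from 262 to 27448 CPM over libraries with Myod1 and from 21.6 to 841 without, with no marker at 0. Of 11 tested cardiomyocyte markers 9 were higher, and 10 of 12 fibroblast markers were lower.

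Cd36 in Myod1 cells ranged from 0 to 162 CPM over 34 libraries, with a median of 24.4. In the matched cells the median was 0 and the highest library stood at 9.88. Cd36 was higher with Myod1 in 26 libraries and lower in 1. The fitted log2 fold change was 4.44 (SE 0.38, adjusted p = 3.65e-13 by edgeR), and the ratio of the pooled levels was 5.53 on the log2 scale, between 5.37 and 5.94 as each library was left out. Cd36 reached the filter of at least 20 counts through the Myod1 cells, as the matched cells held 4 counts. Cd36 was detected in 13.4% of Myod1 cells and 1.16% of the matched cells. It was called in each of the 3 series of libraries analysed alone, with log2 fold changes of 4.75 (JD), 3.75 (PZ47-PZ48) and 5.79 (PZ58).

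Cd36 was found in Myod1 cells with muscle markers and in none without them. In the 173 Myod1 cells with at least 3 muscle markers it was detected in 27.7% of cells (exact binomial 95% interval 21.2% to 35.1%), at 43.4 CPM. In the 179 Myod1 cells with fewer markers it had 0 counts, which allows a share of up to 1.68%, at a median of 11725 counts per cell against 15146. In the 433 cells with muscle markers and no count of Myod1 it was detected in 5.08% and stood at 3.13 CPM. After cells with markers of other types, muscle included, were left out, too few counts of Cd36 remained in the Myod1 comparison to be tested. These intervals and limits cover counting error only.

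Fabp3, the fatty acid carrier of heart and skeletal muscle, ranged from 17.1 to 567 CPM in Myod1 cells (median 88.2) and from 0 to 178 in the matched cells (median 49.4). Fabp3 rose in 22 of 34 libraries, and the log2 fold change was 0.96 (SE 0.20, adjusted p = 0.000214 by edgeR). It too was highest in the Myod1 cells with muscle markers, at 179.9 CPM, against 57.8 in Myod1 cells with fewer markers and 55.0 in cells with neither. Without cells with markers of other types the sign turned, to -0.47 (SE 0.26, adjusted p = 0.69). In the 6 PZ58 libraries alone the estimate was 0.074 (adjusted p = 0.995). The call was also lost in PZ47-PZ48 (1.03, adjusted p = 0.055), the high read class (0.78, adjusted p = 0.343) and without other factors (1.14, adjusted p = 0.114).

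Lpl had another order over the same sets. It stood at 451 CPM in Myod1 cells with fewer than 3 muscle markers, 278 in Myod1 cells with the markers, 240.2 in marker cells without Myod1 and 173 in cells with neither.

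**Figure D3:**
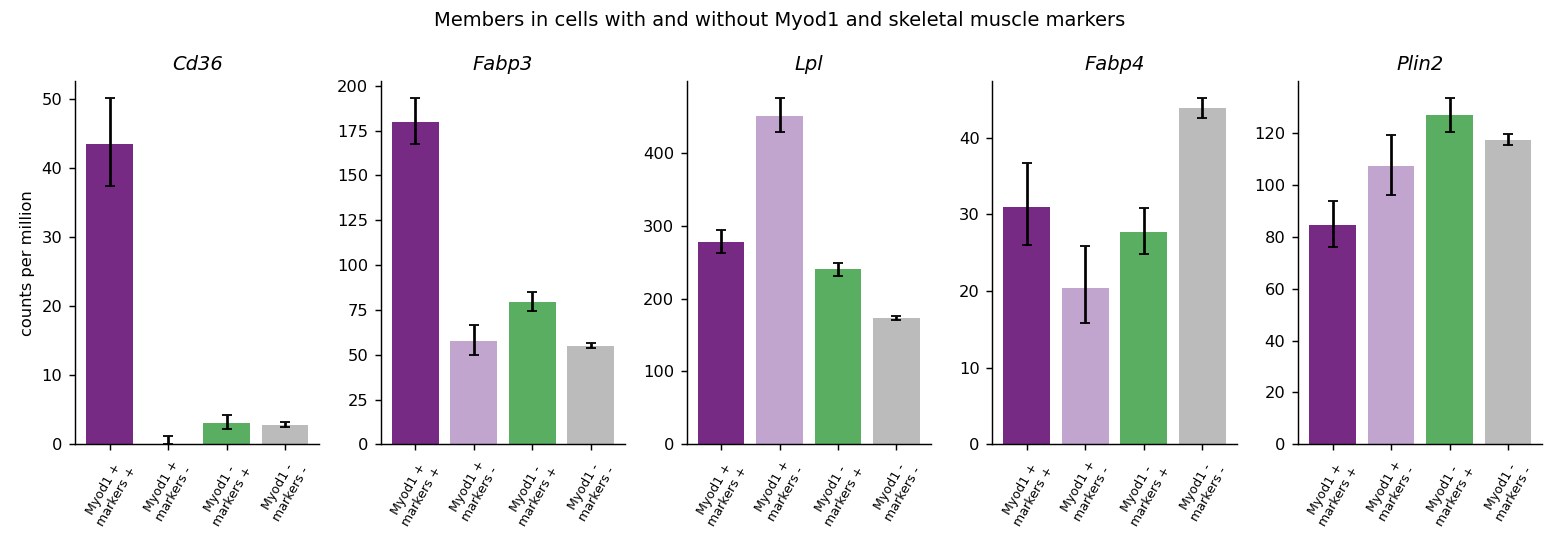
Levels in CPM of 5 lipid genes in cells split by Myod1 (+ at least 1 count) and skeletal muscle markers (+ at least 3), with exact Poisson 95% intervals that cover counting error only. Cd36 and Fabp3 stand highest in cells with both, at 43.4 and 179.9, and Lpl in Myod1 cells without the markers, at 451.

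Plin2 ranged from 0 to 195 CPM in Myod1 cells (median 89.1) and from 0 to 318 in the matched cells (median 125). It was lower in 28 of 34 libraries, with a log2 fold change of -0.58 (SE 0.13, adjusted p = 0.00074 by edgeR). Plin2 was also lower in Mesp1 cells, where it ranged from 17.5 to 158 (median 94.4) against 16.2 to 461 in the matched cells (median 125). It was lower in 26 of 36 libraries, with a log2 fold change of -0.45 (SE 0.12, adjusted p = 0.0105 by edgeR). In Foxn4 cells the estimate was -0.30 (SE 0.11, adjusted p = 0.0876). Without cells that held another of the 6 factors the Mesp1 estimate was -0.19 (SE 0.27, adjusted p = 1). The Mesp1 call was also lost in each of the 3 series alone, in the high read class and with at least 2 counts of Mesp1 (-0.47 to -0.40, adjusted p = 0.119 to 0.873). Without cells with markers of other types the Myod1 estimate was -0.39 (SE 0.19, adjusted p = 0.586), and the Myod1 call was lost in PZ47-PZ48, PZ58, the high read class and without other factors (adjusted p = 0.25 to 0.807).

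Fabp4, the fatty acid carrier of fat cells, ranged from 0 to 230 CPM in Myod1 cells (median 6.46) and from 0 to 507 in the matched cells (median 13.8). It was lower in 22 libraries and higher in 8, with a log2 fold change of -1.27 (SE 0.42, adjusted p = 0.0315 by edgeR). This call was lost in 10 of 19 alternatives, and in the PZ58 libraries the sign turned (0.050, adjusted p = 0.998). The ratio of the pooled levels was -1.15 on the log2 scale and ran from -1.81 to -0.77 as each library was left out, with -1.81 without technical replicate 37, which moved it most. Pparg gave -1.40 (SE 0.53, adjusted p = 0.0733) in Myod1 cells and -1.29 (SE 0.49, adjusted p = 0.117) in Foxn4 cells, and neither passed. Pparg was called lower in 3 of 14 alternatives for Myod1 and 3 of 15 for Foxn4. A single comparison cell held 26 of the 65 Pparg counts without Myod1, and likewise 26 of the 74 without Foxn4.

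The 8 lipid lists held 154 genes with a row besides the members, and in Myod1 cells 15 rose and 20 fell of 125 tested, 28.0%, where 14.3% of all genes were called. Acsl3, Ucp2, Acadl and Ppargc1b were named by rule, and the other genes of this paragraph after their values were seen. Of 14 tested uptake and activation genes, 4 rose, all of them acyl-CoA synthetases, which activate fatty acids: Acsl1, Acsl3, Acsl4 and Acsl6. The caveolar gene Cav1 was the 1 that fell. Acsl3 rose by a log2 fold change of 1.41 (SE 0.15, adjusted p = 1.53e-10). Of 19 droplet and triglyceride genes 4 rose and none fell, among them Cidea at 4.14 (SE 0.46, adjusted p = 2.8e-08), a droplet protein best known from brown fat. Cidea held 113 counts over both sides, and Acsl6, at a log2 fold change of 2.83, held 71. By their fold changes, both reached the filter of at least 20 counts through the Myod1 cells. Of 22 fatty acid oxidation genes 3 rose (Acadl, Hadhb, Ucp2) and 2 fell (Cpt1c, Acaa2). Acadl, the long-chain acyl-CoA dehydrogenase, rose by 0.68 (SE 0.10, adjusted p = 7.18e-07), and Ucp2, an inner mitochondrial membrane carrier, by 1.09 (SE 0.15, adjusted p = 5.6e-08). Ppargc1b, a coactivator of oxidative metabolism, rose by 2.04 (SE 0.36, adjusted p = 2.38e-05). In the synthesis lists 5 of 11 fatty acid synthesis genes fell, Fasn and Scd2 among them, and 7 of 16 sterol synthesis genes fell, with none higher in either list.

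In Mesp1 cells 8 genes of the lists rose and 8 fell of 129 tested, 12.4%, where 8.64% of all genes were called. Dgat2, the last enzyme of triglyceride synthesis, rose by a log2 fold change of 1.19 (SE 0.31, adjusted p = 0.00891), and Bmp4, a signal that favours the fat cell lineage, by 0.76 (SE 0.16, adjusted p = 0.000699). In Foxn4 cells 7 rose and 4 fell of 129, 8.53%, which is near the 7.09% of all genes. Cpt1a, which admits fatty acids to mitochondria, rose by 0.53 (SE 0.099, adjusted p = 0.000203), Ppargc1b rose by 1.77 (SE 0.38, adjusted p = 0.0013), and Acbd3 fell by 0.35 (SE 0.081, adjusted p = 0.0027).

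In Gata6 cells 3 rose and 3 fell of 133, 4.51%, a share below the 5.66% of all genes. Among them were Ucp2 at 0.39 (SE 0.097, adjusted p = 0.00736), Ebf1, an early fat cell factor, at -0.34 (SE 0.083, adjusted p = 0.00657), and the caveolar gene Cavin1 at -0.18 (SE 0.045, adjusted p = 0.00761). In Meis1 cells 1 rose and 3 fell of 133, 3.01%, near the 2.3% of all genes. Dlk1, a marker of fat cell precursors, rose by 0.54 (SE 0.13, adjusted p = 0.0097), while Cavin1 fell by 0.21 (SE 0.034, adjusted p = 9.25e-05), Cav1 by 0.29 (SE 0.065, adjusted p = 0.00711) and Dbi, an acyl-CoA binding protein, by 0.12 (SE 0.031, adjusted p = 0.0165).

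Ebf2, a factor of fat cell precursors, was the only lipid gene of the lists called for Isl1, where it fell by 1.18 (SE 0.27, adjusted p = 0.0248). It was also called in 4 comparisons that share comparison cells, and outside Foxn4 cells it is named there after its values were seen. It fell by 0.94 in Mesp1 cells (adjusted p = 0.0107), 1.35 in Foxn4 cells (adjusted p = 4.62e-05), 0.46 in Gata6 cells (adjusted p = 0.0139) and 1.10 in Myod1 cells (adjusted p = 0.00277). Mature fat cell genes were scarce: the 15 of the list summed to 20.4 CPM over all cells, against 13228 for the 12 fibroblast markers.

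Counts of Fabp4 were higher in cells with Pparg, and counts of Pparg were higher in cells with Fabp4, in the main comparison and in both alternatives run. The calls that involve Cebpa were less stable. In the 333 cells with Pparg that could be matched, Fabp4 was higher by a log2 fold change of 1.70 (SE 0.27, adjusted p = 0.00123 by edgeR), 1 of 7 members called where 0.276% of all genes were. In cells with Cebpa, Pparg was higher by 1.68 (SE 0.34, adjusted p = 0.013) and Fabp4 by 1.17 (SE 0.24, adjusted p = 0.0103), 2 of 7 against 0.248%. In cells with Fabp4, Pparg was higher by 1.45 (SE 0.25, adjusted p = 0.000298), Cebpa by 0.89 (SE 0.20, adjusted p = 0.00448) and Fabp5 by 0.67 (SE 0.081, adjusted p = 3.64e-07), 3 of 7 against 2.98%. Cebpa in cells with Pparg gave 0.54 (SE 0.29, adjusted p = 0.803) and did not pass. Both Cebpa-cell calls were lost without cells with markers of other types (Pparg 1.36, adjusted p = 0.354; Fabp4 0.89, adjusted p = 0.158). They were also lost without the deepest 5% of cells. Cebpa in Fabp4 cells did not pass without cells with markers of other types either (0.61, adjusted p = 0.107). Macrophage genes moved with Cebpa: 4 of 13 tested macrophage markers were higher in Cebpa cells, and 2.08% of Cebpa cells had at least 3 of them against 1.04% of the matched cells.

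Fabp3 was higher in cells with Cd36, while the reverse comparison did not pass. In 107 Cd36 cells matched over 24 libraries, Fabp3 was higher by 2.03 (SE 0.28, adjusted p = 1.91e-07 by edgeR), the only 1 of 6 tested members called, where 11.4% of all genes were. Of these Cd36 cells 57.0% had at least 3 muscle markers and 20.6% at least 3 macrophage markers, against 9.35% and 0% of the matched cells. In the same cells Fabp4 gave 1.27 (SE 0.59, adjusted p = 0.191) and Cebpa 1.08 (SE 0.62, adjusted p = 0.322). All 15 muscle markers and 13 of 13 tested macrophage markers were higher in Cd36 cells. A gene needed at least 20 counts over both sides to be tested, so a rare marker could enter through the Cd36 cells alone. In cells with Fabp3, Cd36 gave 0.96 (SE 0.35, adjusted p = 0.0785), and it did not pass in the alternatives either (adjusted p = 0.65 and 0.202). In cells with Fabp3, all 15 muscle markers were higher as well, and Fabp5 was lower by a log2 fold change of -0.19 (SE 0.060, adjusted p = 0.0318), against a background of 8.51%. Without cells with markers of other types, Fabp5 gave -0.12 (SE 0.066, adjusted p = 0.374) and Plin2 was called higher (0.21, SE 0.056, adjusted p = 0.0119).

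In cells with Lpl, Fabp4 was higher by 0.67 (SE 0.16, adjusted p = 0.00232), the only member called of 7, where 14.1% of all genes were. All 10 mesothelial markers and 8 of 14 macrophage markers were higher in Lpl cells, and 10 of 15 muscle markers were lower. Without cells with markers of other types Fabp4 was higher by 0.54 (SE 0.15, adjusted p = 0.00849).

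**Figure D4:**
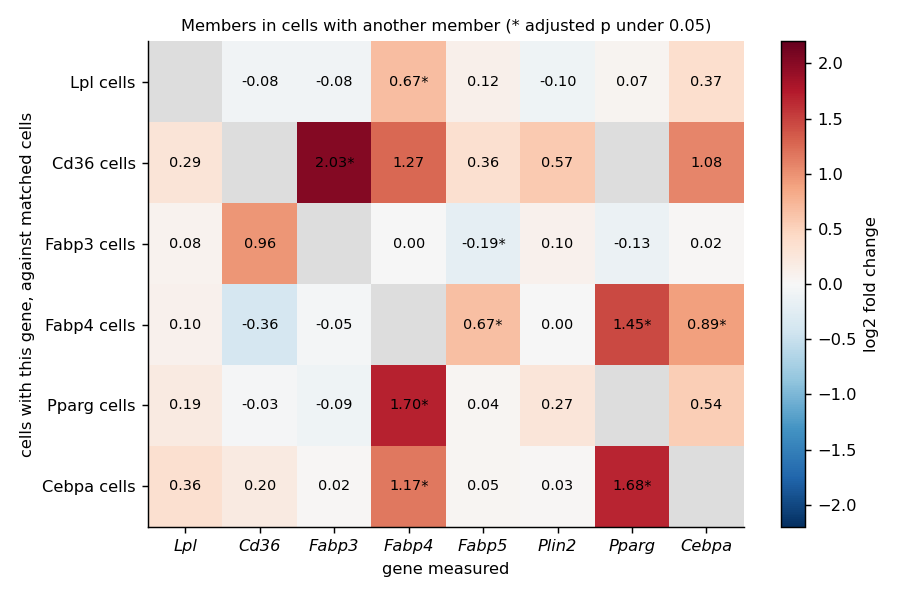
Log2 fold change of each lipid gene (columns) in cells with at least 1 count of another (rows) against matched cells of the same library, with an asterisk where the adjusted p was under 0.05 and grey where not tested. Pparg, Cebpa and Fabp4 rows and columns hold 5 of the 9 asterisks, and Cd36 cells show 2.03 for Fabp3.

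The lipid genes also differed between cells with markers of other types, described without a test because the classes are sets of cells and not replicates. The classes overlap, and cells near the limit of 3 markers were many: 296 of the 606 muscle-marker cells had exactly 3, and 1009 more had 2. Cd36 stood at 174 CPM in the 53 cells with macrophage markers (Poisson 95% interval 154 to 196), where it was detected in 49.1% of cells. In the 7418 cells with fewer than 3 markers of each of these 5 types it stood at 0.440 (interval 0.314 to 0.599) and was detected in 0.431%. Cells with at least 3 cardiomyocyte markers (634 in all) or adipocyte markers (22 in all) were not left out of that set on those grounds. The macrophage-marker cells, with a median of 13676 counts, held 53.3% of all Cd36 counts, and the muscle-marker cells held 44.3%. The endothelial-marker cells held 23.5%, in 6 cells, at 14.3 CPM against 14.0 in muscle-marker cells. These shares overlap, and 1 cell held 100 of all 510 Cd36 counts. The 96 cells with glial markers had no Cd36, which allows a share of up to 3.13%, at a median of 7358 counts.

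Plin2 stood at 304 CPM in macrophage-marker cells (interval 277 to 333) against 114 in cells without marker sets (interval 112 to 116). Fabp5 was highest in glial-marker cells, at 359 (interval 331 to 389) against 139 (interval 137 to 142). Fabp3 stood at 107 in muscle-marker cells and 138 in macrophage-marker cells against 53.4. Fabp4 stood at 18.8 in mesothelial-marker cells and 76.2 in macrophage-marker cells against 43.5. Pparg was detected in 24.3% of the 152 endothelial-marker cells, whose median total was 45976 counts, against 3.52% of cells without marker sets at 8056. The Pparg levels were 9.17 CPM (interval 7.24 to 11.5) and 3.96 (interval 3.56 to 4.39). In macrophage-marker cells Pparg stood higher by estimate, at 13.4 (interval 8.33 to 20.6). Cebpa stood at 14.7 in macrophage-marker cells against 6.45 in cells without marker sets.

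**Figure D5:**
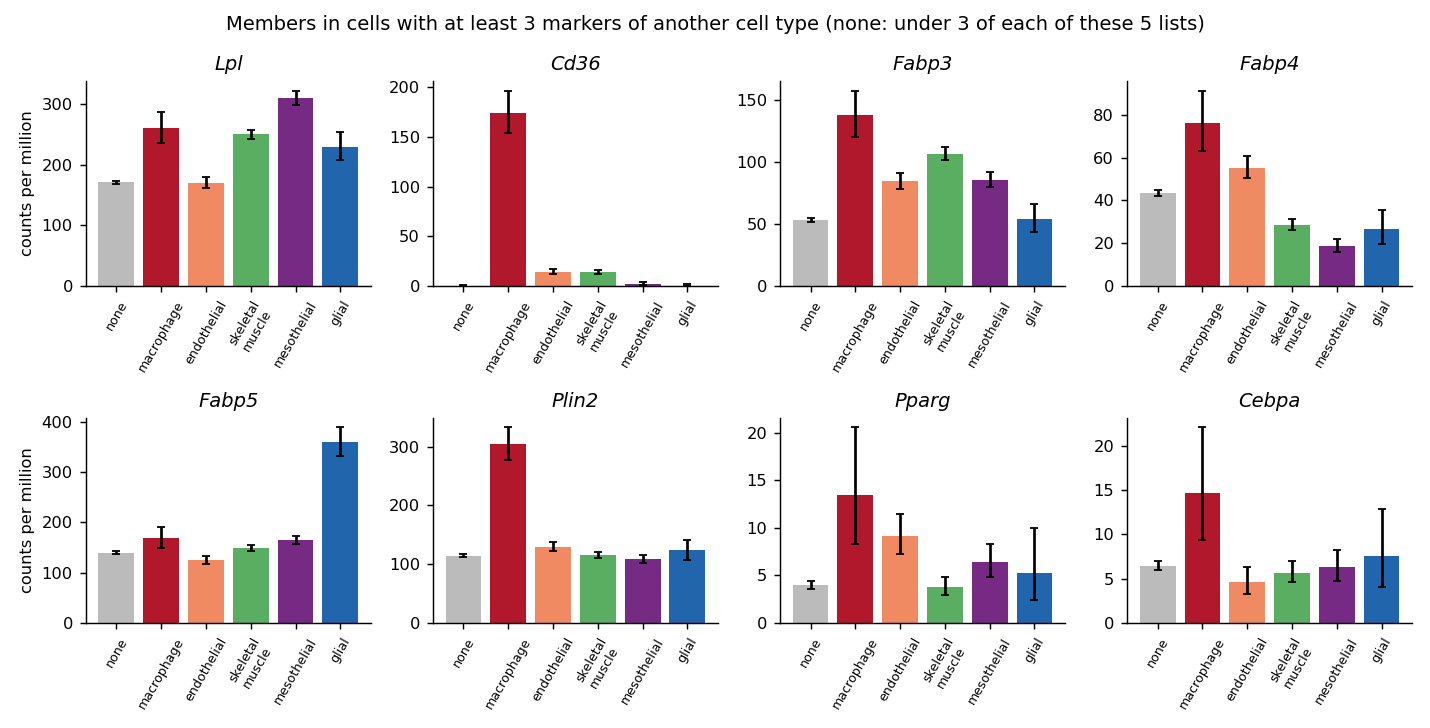
Levels in CPM of the 8 lipid genes in cells with at least 3 markers of another cell type and in cells with fewer than 3 of each of the 5 lists shown (none), with exact Poisson 95% intervals that cover counting error only. Cd36 (174) and Plin2 (304) stand highest in macrophage-marker cells, Fabp5 (359) in glial-marker cells and Lpl (309.9) in mesothelial-marker cells.

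Cd36 was also compared directly between factors. It was lower in Mesp1 cells than in Myod1 cells, by a log2 fold change of -3.87 (SE 0.48, adjusted p = 5.11e-08 by edgeR, background 6.78%), and lower in Gata6 cells than in Myod1 cells, by -3.95 (SE 0.52, adjusted p = 2.75e-07, background 9.25%). Cd36 held 111 and 93 counts over both sides of these comparisons. By its fold changes, it reached the filter of at least 20 counts through the Myod1 cells in both. Without cells with markers of other types, too few counts of Cd36 remained in either comparison to be tested. Fabp3 in Gata6 cells against Myod1 cells gave -0.64 (SE 0.21, adjusted p = 0.0475). It did not pass with library totals in place of TMM scaling (-0.62, adjusted p = 0.0519). It gave 0.59 (SE 0.36, adjusted p = 0.999) without cells with markers of other types. In Gata6 cells against matched cells, Cd36 gave 1.21 (SE 0.46, adjusted p = 0.126) and did not pass; it was higher in 20 libraries and lower in 11.

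Genes nearest to Lpl and Plin2 over the 6 factors were named by their distance. Among 10468 genes with at least 100 counts in each comparison, the 3 genes nearest to Lpl were Fam49a, Qpct and Tspan18, with root mean square differences of 0.34, 0.41 and 0.45 from its 6 log2 fold changes, where the median gene differed by 1.05. They did not match it for every factor: for Meis1 they gave 0.048, 0.18 and 0.043 where Lpl gave 0.48, and for Isl1 Qpct gave 0.096 where Lpl gave -0.75. The 3 nearest to Plin2 were Aacs, Peak1 and Nup188, at 0.033, 0.038 and 0.048, where the median gene differed by 0.36. The measure is a likeness of 6 values that share comparison cells.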

How the data were processed

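The authors deposited whole-number counts per gene and cell barcode. The submitters' processing notes list bcl2fastq 2.17.1.14, STAR 2.5.3a, UMI-tools and featureCounts 1.5.3 and the build mm10, without their roles. Annotation, strand setting, cell filter, whether counts are of distinct molecules, and the treatment of reads with several matches are not given in the sources used here. All 37 samples form 1 group of technical replicates.

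Of 8730 barcodes, 89 shared between libraries and 76 close to another barcode were removed. Replicates 4 and 6 were joined. No doublet caller was run; an alternative left out the deepest 5% of cells. In each library, cells with at least 1 count of a factor or member were paired with cells without it within 0.25 log2 of total counts, and both sides were summed. Libraries with at least 3 pairs entered edgeR 4.0.16 (R 4.3.3), with quasi-likelihood tests, TMM scaling, a library block, genes with at least 20 counts, two-sided p-values and Benjamini-Hochberg adjustment over all genes tested. The script was tested on simulated data. DESeq2 1.42.0, other filters, matching and subsets were alternatives; adjusted deviances and leaving out macrophage-marker cells were chosen after seeing the data.

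The members and lists were chosen with earlier results of these data known. Beside the members, up to 4 list genes were named per factor: called, with the smallest adjusted p and 1 sign in all 3 library series. Genes nearest to a member called in at least 2 factor comparisons were named by the root mean square difference. Some genes that this rule names are not reported here. Intervals of shares of cells and of CPM levels are exact at 95%, and a count of 0 allows 3 counts of the total. These intervals of shares and levels, and these limits, cover counting error only. The 95% intervals of log2 fold changes are normal approximations from the SE of the edgeR fit and measure the spread between libraries.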

Additional observations from a re-analysis of the deposited data

Results flagged for a closer look

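The direct comparisons of cells of different factors gave 7 differences that passed edgeR's quasi-likelihood test. Lpl was higher in Mesp1 cells than in Foxn4 cells by 0.89 on the log2 scale, than in Gata6 cells by 1.14, than in Isl1 cells by 1.87 and than in Meis1 cells by 1.46. Cd36 gave -3.87 in Mesp1 cells against Myod1 cells and -3.95 in Gata6 cells against Myod1 cells. In both, Cd36 reached the filter of at least 20 counts through the Myod1 cells. Fabp3 gave -0.64 in Gata6 cells against Myod1 cells, and all 15 skeletal muscle markers were higher in Myod1 cells than in their matched cells.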

How the results depend on the processing

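The 10 called results of the 6 factor comparisons gave 189 alternative values: 151 stayed called in the same direction, 36 kept the direction without passing and 2 reversed. Of 678 values for the 38 results not called, 28 passed. Reversals were Fabp3 in Myod1 cells (-0.47) and in Gata6 against Myod1 cells (0.59), both without cells with markers of other types, and Fabp4 in Myod1 cells (0.050) in the PZ58 libraries. The cause was not tested.

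Numbers of members called moved as follows. Changes as small as from 2 to 3 are not listed. For Mesp1 (2) it was 1 in JD, PZ47-PZ48 or high read class libraries and without cells with another factor, and 0 in PZ58. In Mesp1 cells Fabp3 gave 0.35 (adjusted p = 0.0683 by edgeR) and was called higher in 5 of 19 alternatives. Fabp5 gave -0.29 (adjusted p = 0.293 by edgeR) and was called lower in 3 of 19. For Foxn4 (1) the Lpl call was lost in PZ58 and the high class, where Fabp4 was called lower instead (adjusted p = 0.0412 and 0.00451 by edgeR), and the number was 2 with no filter, no library block, adjusted deviances, pairs within 0.1 log2, all barcodes, or without cells with markers of other types, and 3 with at least 2 counts of the factor. For Gata6 (1) it was 2 with no filter, no block, adjusted deviances, no pair limit or without the deepest 5% of cells, and 0 in PZ58 or the high class. For Myod1 (5) it was 1 in PZ47-PZ48, PZ58, the high class or without cells with markers of other types, and 3 with at least 2 counts or without other factors. For Isl1 (0) it was 1 with no filter or without the deepest cells. For Meis1 (1) it was 0 in JD, PZ58 or the high class. Subsets hold fewer libraries. Mesp1 against Foxn4 went from 1 to 0 with library totals. Mesp1 and Gata6 against Myod1 went to 0 without cells with markers of other types, where Cd36 had too few counts to be tested. Cebpa cells went to 0 in both alternatives and Cd36 cells to 2 without the deepest cells. Cd36 cells without other types had too few libraries and were not run.

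With library totals in place of TMM, the share of called genes that were higher went from 58.67% to 69.99% for Foxn4 and from 40.91% to 67.03% for Meis1.

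Over all genes, 1235 were called for Mesp1, with 228 in JD, 450 in PZ47-PZ48, 6 in PZ58, 92 in the high class and 36 without other factors. In that order of subsets Foxn4 (1004) gave 268, 295, 24, 77 and 70, Gata6 (910) gave 175, 184, 61, 137 and 484, and Myod1 (1953) gave 918, 687, 196, 397 and 683. Meis1 (374) gave 21, 133, 10, 17 and 108. Foxn4 gave 322 with at least 2 counts and Myod1 108 without other types. The low class gave 475 for Gata6, 22 for Isl1 and 212 for Meis1. With no block the calls were 593 for Gata6, 135 for Isl1 and 149 for Meis1, and with no filter 291 for Isl1 and 675 for Meis1. Isl1 (40) also gave 8 in JD, 87 by DESeq2, 88 with adjusted deviances, 129 without the deepest cells, 70 without other types and 23 without other factors.

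Between factors, leaving out cells with markers of other types changed all-gene calls from 280 to 175 for Mesp1 against Foxn4, from 414 to 0.399 of that number against Gata6, from 836 to 31 against Myod1, from 104 to 63 against Isl1, and from 1180 to 37 for Gata6 against Myod1. It changed them from 38 to 11 in Pparg cells and from 1363 to 878 in Fabp3 cells. Without the deepest cells Pparg cells gave 2, and Cd36 cells 866 in place of 1339. With library totals the higher share for Mesp1 against Gata6 went from 59.9% to 70.5%.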
